A study of Mus musculus with 55 samples.

Results

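The comparison described here set long-term hematopoietic stem cells (LT-HSCs) sorted from Tet2;Sting double knockout (DKO) bone marrow against LT-HSCs sorted from wild-type (WT) bone marrow. Its members were the expressed genes outside chromosomes X and Y. The second count table of the study held 35975 genes, of which 34230 lay outside those chromosomes, and 9416 of these had enough counts to be tested. The 3 DKO and 3 WT libraries were part of a series of 55 libraries of sorted mouse hematopoietic cells, and 3 Sting knockout (Sting KO) libraries stood in the same table. DKO mice carried Tet2 f/f, Sting-/- and Mx1-Cre, all on C57BL/6, and had received 5 intraperitoneal doses of 250 µg poly(I:C) every other day from 4 weeks of age. Mx1-Cre is driven by an interferon-inducible promoter that is active in blood cells and in other tissues, whereas the Sting-/- allele is carried by every cell. Sting KO mice lacked Sting in every cell, and the sources do not give a Tet2 allele or an induction for them. For the WT libraries, too, no statement tied to them says whether poly(I:C) was given, and no age at sorting was found for these libraries. A later comparison uses Tet2 knockout (Tet2 f/f, Mx1-Cre) and WT LT-HSCs of the study's first set. By the methods the knockout mice had the same poly(I:C) course, and the study kept the mice of that set for weeks after induction. The study describes its LT-HSC libraries as coming from individual mice, so the p-values measure the spread between mice together with that of the preparation. LT-HSCs were sorted as Lin-, cKit+, Sca1+, CD48- and CD150+ cells. The labels give 200 cells per sample and the methods about 300, and full-length cDNA was amplified from them with a modified SMART-Seq2 protocol.

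The enzyme TET2 converts 5-methylcytosine in DNA into oxidized forms, a route by which the mark can be lost. Loss of TET2 in blood stem cells is among the commonest events of clonal hematopoiesis. STING, encoded by Tmem173, is the adapter that passes the signal of the cytosolic DNA sensor cGAS to TBK1 and IRF3, which switch on type I interferon and inflammatory genes. LT-HSCs are rare, mostly quiescent cells that sustain all blood lineages, and they keep protein synthesis low.

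Depth ran from 26776103 counts in WT 3 to 78681188 counts in DKO 2, and 9381 to 11527 genes were detected per library among the 9 libraries of the table. Values below are CPM, a gene's counts relative to its library's total after TMM scaling, given for libraries 1, 2 and 3 in turn. The targeted genes did not separate the genotypes. Tet2 had 977, 0 and 0 counts in the libraries labelled WT and 1342, 1433 and 56 counts in those labelled DKO (two-sided exact permutation test, p = 0.50). Tmem173 had 1788, 1168 and 0 counts in WT, 6333, 0 and 3835 in Sting KO and 0, 14 and 1128 in DKO (p = 0.40 for DKO against WT, exact permutation test). The part of each gene that the alleles remove is not known from the files, so these counts do not settle the genotype of a library, and every direction below rests on the labels. Xist lay at 92.5 to 244 CPM in WT and at 0.0139 to 0.249 CPM in DKO, while Eif2s3y lay at 0 to 0.237 CPM in WT and 281 to 317 CPM in DKO. Genotype and sex therefore changed together in this comparison and cannot be told apart.

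Surface markers of the gate were detected, with exceptions in single libraries, and Procr was looked at beside them. Kit, the stem cell factor receptor, was at 247, 75.4 and 132 CPM in WT and 202, 157 and 179 CPM in DKO. Ly6a, which encodes the Sca1 antigen, was at 187, 195 and 107 CPM in WT and 243, 411 and 497 CPM in DKO, with every DKO library above WT and no call (log2 difference 1.18, adjusted p = 0.22, edgeR). Procr, which encodes the EPCR stem cell antigen, was at 155, 131 and 208 CPM in WT and 79, 120 and 231 CPM in DKO. Slamf1, which encodes CD150, was at 57.8, 35.9 and 27.9 CPM in WT and at 103, 154 and 0.0932 CPM in DKO, so DKO 3 had almost none. Cd48, which the gate excludes, was at 23.6, 0.0594 and 0 CPM in WT and 29.4, 27.1 and 0.443 CPM in DKO. Many defining markers of mature cells had 0 counts in all 6 libraries, among them Ms4a1, Ebf1 and Pax5 of B cells, Cd3e, Cd4 and Cd8a of T cells, Klf1 and Slc4a1 of erythroid cells, Csf1r and Adgre1 of macrophages and Ltf, Camp and Lcn2 of neutrophils. Other markers of the same lists were present: Lyz2 was at 489, 1046 and 785 CPM in WT and 1366, 875 and 990 CPM in DKO, Lat at 131, 93.1 and 144 CPM and 17.2, 51.3 and 68.7 CPM, Cd79b at 5.20 to 93.6 CPM and 33.7 to 88.0 CPM, and Hbb-bt at 7.06 to 53.2 CPM and 40.2 to 96.1 CPM. Hba-a1, another globin gene, lay the other way, at 4.07, 6.53 and 10.4 CPM in WT and 0, 0.0697 and 0 CPM in DKO. S100a8 was at 86.7 CPM in DKO 2 and at most 6.31 CPM in the other 5 libraries.

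The genes that edgeR called between DKO and WT LT-HSCs lay mostly on the lower side. With the quasi-likelihood test, a Benjamini-Hochberg adjusted p of at most 0.05 and at least a 2-fold change, 58 of 9416 genes were lower in DKO (0.616%) and 2 were higher (0.0212%), namely Nupr1 and Ice2. Of these 2, Ice2 had 4 counts over WT and entered the test through DKO alone. The balance between the directions depended on the processing. DESeq2 at the same thresholds called 610 lower (6.48%) and 200 higher (2.12%), shares against which its counts in the gene lists below are to be read. Counts of edgeR calls in those lists are to be read against 0.616% lower and 0.0212% higher. With the GC trend described below taken off, edgeR called 8 in each direction. At an unadjusted p under 0.05 with 2-fold the balance then turned, with 655 higher and 398 lower. That correction overshot, leaving a trend the other way and a median of 0.42 over all genes, so this balance carries an upward shift. The genes that fell included Rpl13 and Rps2 of the ribosome, the immediate early factors Junb and Ier2, the linker histones Hist1h1c and H1f0, the class I genes H2-D1 and H2-K1, the ferritin heavy chain gene Fth1, and 4 subunits of the respiratory chain and ATP synthase. Their log2 fold changes ran from -7.98 to -1.74 with a median of -3.58, and DKO kept 0.377% to 31% of the WT mean, with a median of 8.65%. None of them was a weakly expressed gene in WT, where their means started at 110 CPM and had a median of 526 CPM. None of the 848 genes with a mean under 5 CPM or the 3654 from 5 to 30 CPM was called in either direction. The high WT level is thus tied to what the test could call. In bulk libraries, fewer cells that express a gene and less of its RNA per cell cannot be told apart.

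At an unadjusted p under 0.05 with at least a 2-fold change, 321 genes were higher (3.41%) and 744 lower (7.9%). In 1016 genes (10.8%) every DKO library was above every WT library, and in 1328 (14.1%) every DKO library was below. The share above grew with level: it was 41.9% among genes with a mean from 300 to 1000 CPM and 56.7% over 1000 CPM. With 3 libraries a side, a two-sided exact permutation test of a single gene cannot go below p = 0.10, which is the value all 60 called genes reached. Calls depended strongly on single libraries: 9 genes were called lower without WT 1, 13 without WT 2, 2 without WT 3, 36 without DKO 1, 25 without DKO 2 and 2 without DKO 3. Rpl13 and Ier2 were called in all 6 of these fits and were the 2 genes left without WT 3 or DKO 3. Of the 60 genes, 25 were called in none of the 6 fits. Among them were Nupr1, Ice2, Rps2, Eif4ebp1, H2-K1, Ndufa10, Uqcrfs1, Cox8a, Dnajb9, Cct4, Arf4, Rbm39 and Rab4a. All 60 kept their direction in each fit.

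**Figure D1:**
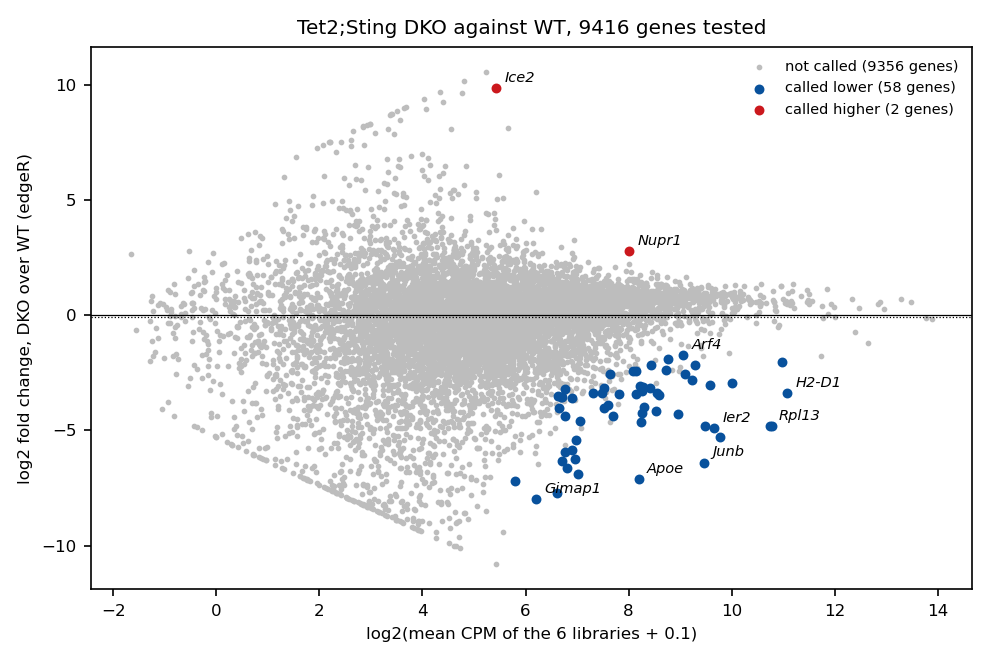
Log2 fold change of DKO against WT (y axis, edgeR) for the 9416 genes tested, over the log2 mean CPM of the 6 libraries (x axis); called genes are marked. The 58 genes called lower sit among moderately to highly expressed genes, and the 2 called higher stand alone above 0.

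The coding sequence of some of these genes is shown here because the genes that fell shared GC-rich stretches, as set out at the end of the results. For each gene, the 100 bases of 1 coding exon with the most G and C are printed 5′ to 3′ on the coding strand, from GENCODE vM21 on mm10, with runs of at least 6 G or C bases in capitals. The first 4 genes fell in DKO: Rpl13 (chr8:123102845-123102944, plus strand, exon 3 of 6, 71 G or C bases), Rps2 (chr17:24720333-24720432, plus strand, exon 1 of 5, 77 bases), Ier2 (chr8:84662137-84662236, minus strand, its single exon, 74 bases) and Junb (chr8:84977890-84977989, minus strand, its single exon, 76 bases). The next 2 were not called and had every DKO library above every WT library: Eef1a1 (chr9:78479649-78479748, minus strand, exon 5 of 8, 59 bases) and Mcl1 (chr3:95658944-95659043, plus strand, exon 1 of 3, 87 bases).
Rpl13: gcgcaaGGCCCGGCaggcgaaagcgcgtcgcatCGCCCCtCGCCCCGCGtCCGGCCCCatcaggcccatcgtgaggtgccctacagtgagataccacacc
Rps2: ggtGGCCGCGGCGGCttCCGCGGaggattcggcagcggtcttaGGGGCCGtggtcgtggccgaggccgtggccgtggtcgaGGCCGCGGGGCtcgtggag
Ier2: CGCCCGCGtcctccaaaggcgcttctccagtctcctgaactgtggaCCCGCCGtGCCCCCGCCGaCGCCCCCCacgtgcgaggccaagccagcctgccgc
Junb: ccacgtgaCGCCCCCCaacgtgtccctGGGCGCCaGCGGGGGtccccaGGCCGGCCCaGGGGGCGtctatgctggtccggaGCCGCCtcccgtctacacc
Eef1a1: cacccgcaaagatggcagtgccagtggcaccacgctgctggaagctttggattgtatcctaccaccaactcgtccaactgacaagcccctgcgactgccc
Mcl1: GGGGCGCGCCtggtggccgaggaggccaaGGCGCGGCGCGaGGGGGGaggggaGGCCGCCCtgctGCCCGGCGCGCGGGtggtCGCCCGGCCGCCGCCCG
The window of Eef1a1 has 59 G or C bases against 71 and 77 in those of Rpl13 and Rps2, and no run of 6. Mcl1 goes the other way: its window is the richest of the 6, and its level was not lower in DKO.

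Of the ribosomal protein genes, Rpl13 and Rps2 fell. Rpl13 encodes a protein of the large ribosomal subunit. It was at 3031, 3564 and 3381 CPM in WT, 3581, 1892 and 1818 CPM in Sting KO and 104, 172 and 88.8 CPM in DKO. Every DKO library was thus more than an order of magnitude below every WT library, and the log2 fold change was -4.82 ± 0.34 (SE, adjusted p = 0.0034, edgeR). Rps2, of the small subunit, was at 547, 521 and 711 CPM in WT, 386, 205 and 240 CPM in Sting KO and 52.3, 48.5 and 15.6 CPM in DKO (log2 fold change -3.98 ± 0.52, adjusted p = 0.017, edgeR). Both genes have many processed copies in the genome, and how the counting divided reads between copies is not given in the sources used here. Of the 78 ribosomal protein genes tested, edgeR called these 2 lower and none higher, and DESeq2 called 2 lower and 1 higher. In 56 of the 78, every DKO library was above every WT library, against 10.8% of all genes tested, and the median log2 fold change was 0.70, against -0.09 over all genes. The count is to be read against the shares at high levels given above.

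Of the factors that load and drive the ribosome, 2 were called lower. Eif1, which guards the choice of the start codon, fell from 1529, 1958 and 1969 CPM in WT to 137, 298 and 311 CPM in DKO, while Sting KO stood at 2268, 1637 and 2124 CPM (log2 fold change -2.93 ± 0.36, adjusted p = 0.013, edgeR). Eif4ebp1, which encodes the 4E-BP1 repressor of cap-dependent translation, fell from 193, 381 and 192 CPM to 6.10, 8.32 and 18.2 CPM (-4.60 ± 0.64, adjusted p = 0.024, edgeR). These were the 2 members that edgeR called among 60 translation factors tested, where DESeq2 called 7 lower and 2 higher. Eif5a, an elongation factor, was at 1954, 1227 and 1268 CPM in WT and 588, 372 and 531 CPM in DKO and missed the call (adjusted p = 0.076, edgeR). Eef1a1, which carries aminoacyl-tRNA to the ribosome, was at 3364, 2902 and 3390 CPM in WT and 5898, 3643 and 4325 CPM in DKO (log2 difference 0.47, adjusted p = 0.54). In 12 members DKO was below WT in every library and in 10 above, against 14.1% and 10.8% of all genes, and the median was 0.33. The ribosome biogenesis genes Gltscr2 (also Nop53) and Ppan fell as well, Gltscr2 from 804, 616 and 667 CPM to 17.2, 53.8 and 51.4 CPM and Ppan from 797, 361 and 445 CPM to 40.2, 74.5 and 83.5 CPM.

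Immediate early genes are switched on within minutes of a stimulus, and in sorted stem cells they also respond to handling. Ier2, a nuclear immediate early protein, was at 1935, 1118 and 1662 CPM in WT, 494, 309 and 281 CPM in Sting KO and 51.3, 69.4 and 42.8 CPM in DKO (log2 fold change -4.91 ± 0.36, adjusted p = 0.0034, edgeR). Junb, an AP-1 subunit that restrains stem cell proliferation, was at 1939, 647 and 1620 CPM in WT, 738, 359 and 280 CPM in Sting KO and 7.53, 25.4 and 19.0 CPM in DKO (-6.40 ± 0.66, adjusted p = 0.0085, edgeR). The 3 groups were ordered WT, Sting KO, DKO for Ier2 with no overlap, whereas for Junb Sting KO 1 lay above WT 2. Jun, the partner of Fos in AP-1, was at 379, 174 and 184 CPM in WT, 75.1, 57.1 and 46.6 CPM in Sting KO and 30.8, 35.8 and 40.8 CPM in DKO, and just missed the call (adjusted p = 0.058, edgeR). Not all members were low. Nr4a1, the member with the highest mean, was at 8590, 3587 and 7648 CPM in WT and 1898, 4870 and 5648 CPM in DKO, and Fos was at 1642, 592 and 4310 CPM in WT and 715, 1180 and 3177 CPM in DKO, both with overlapping groups. Of 38 members tested, edgeR called Ier2 and Junb lower and none higher, and DESeq2 called 9 lower and none higher. In 17 DKO was below WT in every library, against 14.1% of all genes, and in 1 above. That 1 was Mcl1, at 138, 196 and 66.0 CPM in WT and 305, 313 and 233 CPM in DKO, which encodes an anti-apoptotic BCL2 protein that stem cells need. The median over the list was -1.10, and 0.06 with the GC trend described below taken off, where the median of all genes was 0.42.

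Linker histone genes fell in DKO. Hist1h1c encodes the linker histone H1.2 and was at 206, 110 and 344 CPM in WT, 145, 45.0 and 48.8 CPM in Sting KO and 1.71, 3.39 and 1.72 CPM in DKO (log2 fold change -6.62 ± 0.74, adjusted p = 0.0098, edgeR). H1f0 encodes the linker histone of non-dividing cells and was at 423, 309 and 312 CPM in WT, 98.5, 56.3 and 63.1 CPM in Sting KO and 13.1, 40.0 and 14.2 CPM in DKO (-4.01 ± 0.57, adjusted p = 0.026, edgeR). For both genes every DKO library was below every library of the other genotypes, while Sting KO 1 lay above WT 2 for Hist1h1c. These were the 2 that edgeR called among 32 tested of 76 histone genes, where DESeq2 called 11 lower and none higher. In 16 of the 32 every DKO library was below every WT library, against 14.1% of all genes, and in 1 it was above. Of the 32, however, 6 had 3 counts or fewer in one of the groups, so that they entered the test through the other group alone. Among the 13 with a mean of at least 10 CPM, 8 had DKO below WT in every library and none above, with a median of -3.89. Over the 32 the median log2 difference was -3.84, and it stayed between -4.84 and -2.60 under every other setting tried. Several were at or near 0 in DKO. Hist1h2ae had 1152 counts over the WT libraries and 0 over the DKO libraries, and taking 3 counts over the group as the floor it was at least 563-fold lower. Hist1h1e, with 608 and 0 counts, was at least 297-fold lower. Hist1h2ae and Hist1h1e were picked after their values were seen. Reads of the near-identical copies in the histone clusters could have been divided between them. H3f3b, a replacement histone gene and the member with the highest mean CPM, was at 10320, 17610 and 19340 CPM in WT and 10390, 20690 and 12800 CPM in DKO. Most replication-dependent histone mRNAs lack a poly(A) tail, so cDNA primed on poly(A) samples them poorly.

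**Figure D2:**
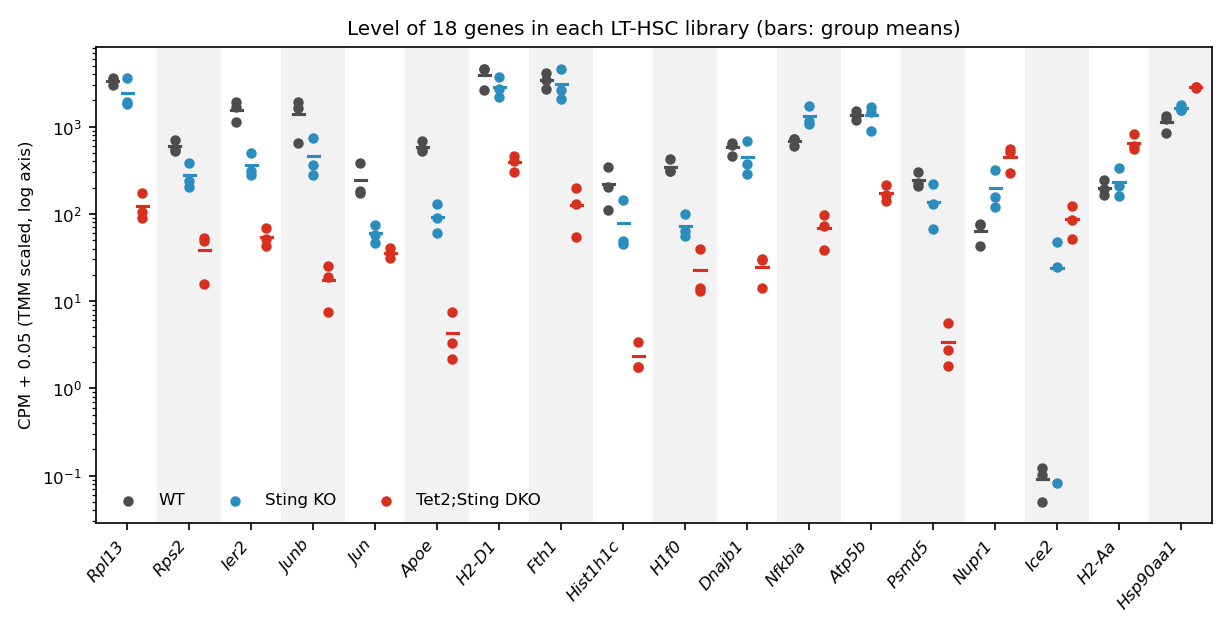
CPM of 18 genes (log axis, with 0.05 added) in each WT, Sting KO and DKO library; dots are libraries and bars are group means. Rpl13 sits between 88.8 and 172 CPM in DKO and between 3031 and 3564 CPM in WT, and Nupr1 and Hsp90aa1 are among those that sit higher in DKO.

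In antigen presentation, 2 class I heavy chain genes fell. H2-D1, a classical class I heavy chain, fell from 4550, 2633 and 4579 CPM in WT to 299, 407 and 463 CPM in DKO, with Sting KO at 3668, 2678 and 2188 CPM (log2 fold change -3.39 ± 0.33, adjusted p = 0.0085, edgeR). H2-K1, the other classical heavy chain, fell from 3705, 2233 and 3660 CPM to 535, 932 and 1000 CPM, with Sting KO at 3061, 2942 and 3324 CPM (-2.02 ± 0.33, adjusted p = 0.044, edgeR). With 1 library left out, H2-D1 was called in 4 of the 6 fits and H2-K1 in none. With the GC trend described below taken off, neither was called, at -1.47 for H2-D1 and -0.45 for H2-K1. The 2 genes are highly alike, so reads may have been divided between them or with other class I genes. B2m, the invariant partner of class I chains, was not lower: it was at 5574, 8331 and 8471 CPM in WT and 13260, 13430 and 11140 CPM in DKO (log2 difference 0.71, adjusted p = 0.24). The class II chain H2-Aa was at 163, 194 and 242 CPM in WT and 597, 817 and 556 CPM in DKO (log2 difference 1.67, adjusted p = 0.063), and the class II invariant chain Cd74 at 658, 759 and 1099 CPM against 2349, 2763 and 1553 CPM (1.35, adjusted p = 0.13). The groups parted for all 3 without a call by edgeR. Over the 23 members tested, edgeR called 2 lower and none higher, and DESeq2 called 2 in each direction. In 4 DKO was below WT in every library and in 6 above, against 14.1% and 10.8% of all genes, and the median was 0.34.

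Subunits of 4 complexes of oxidative phosphorylation fell. Atp5b, the catalytic beta subunit of ATP synthase, fell from 1514, 1178 and 1377 CPM in WT to 213, 165 and 142 CPM in DKO, whereas Sting KO stood at 887, 1686 and 1462 CPM (log2 fold change -3.02 ± 0.28, adjusted p = 0.0085, edgeR). Ndufa10 of complex I fell from 204, 193 and 185 CPM to 22.9, 22.4 and 20.9 CPM, the complex III iron-sulfur subunit Uqcrfs1 from 186, 259 and 129 CPM to 19.9, 19.8 and 11.3 CPM, and Cox8a of complex IV from 275, 466 and 249 CPM to 21.3, 59.0 and 35.9 CPM. These were the 4 that edgeR called among 85 nuclear genes of oxidative phosphorylation, all lower, against 0.616% of all genes, where DESeq2 called 12 lower and 13 higher. With 1 library left out, Atp5b was called in 4 of the 6 fits and the others in none. With the GC trend described below taken off, none of the 4 was called. Their log2 differences were then -1.04 for Atp5b, -1.57 for Ndufa10, -1.66 for Uqcrfs1 and -1.78 for Cox8a. At an unadjusted p under 0.05 and 2-fold, however, 23 members were higher and 13 lower, against 3.41% and 7.9% of all genes. Ndufa9, also of complex I, was at 142, 130 and 124 CPM in WT, 395, 332 and 332 CPM in Sting KO and 503, 356 and 357 CPM in DKO (log2 difference 1.57, adjusted p = 0.084, edgeR). Atp5a1, the alpha subunit that pairs with Atp5b and the member with the highest mean, was at 1136, 837 and 1281 CPM in WT and 436, 578 and 898 CPM in DKO with overlapping groups. In 39 members DKO was above WT in every library and in 14 below, against 10.8% and 14.1% of all genes, and the median log2 difference was 0.78. The count of 39 is to be read against the shares by level given earlier. The 13 genes of the mitochondrial genome gave no call with edgeR or DESeq2 and none at the unadjusted p with 2-fold, with a median of 0.48. Of 21 glycolytic genes edgeR called none, DESeq2 called 1 in each direction, and 2 were higher and 1 lower at the unadjusted p with 2-fold, against 3.41% and 7.9% of all genes. Chchd2, a regulator of respiration, and Isca1, an iron-sulfur cluster assembly factor, both fell, the first from 273, 473 and 347 CPM to 21.4, 33.0 and 22.2 CPM, the second from 519, 901 and 610 CPM to 178, 197 and 194 CPM.

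In the list of heat shock and chaperone genes, 3 were called lower by edgeR. Dnajb1, the inducible HSP40 co-chaperone, fell from 619, 465 and 652 CPM in WT to 13.9, 30.4 and 29.2 CPM in DKO, with Sting KO at 690, 283 and 377 CPM (log2 fold change -4.62 ± 0.43, adjusted p = 0.0085, edgeR). Dnajb9, a co-chaperone of the endoplasmic reticulum, fell from 441, 508 and 606 CPM to 55.4, 70.3 and 23.4 CPM, and Cct4, a subunit of the TRiC chaperonin, from 469, 600 and 607 CPM to 83.7, 129 and 182 CPM. Other subunits of the same ring did not follow Cct4. Cct5 was at 771, 1050 and 717 CPM in WT and 2158, 1988 and 1804 CPM in DKO, Cct7 at 775, 444 and 877 CPM and 1970, 1628 and 1570 CPM, both without a call (adjusted p = 0.099 and 0.15, edgeR); these subunits were picked after their values were seen. Hsp90aa1, the inducible HSP90, was at 856, 1328 and 1224 CPM in WT and 2811, 2794 and 2875 CPM in DKO (log2 difference 1.26, adjusted p = 0.077), and Stip1, which links HSP70 to HSP90, at 275, 280 and 291 CPM and 763, 854 and 589 CPM (1.33, adjusted p = 0.081). Of the 25 listed genes tested, which do not include Pdia3, a disulfide isomerase of the endoplasmic reticulum that was also called lower, edgeR called 3 lower and none higher, and DESeq2 called 5 in each direction. In 10 DKO was above WT in every library and in 6 below, against 10.8% and 14.1% of all genes. The count of 10 is to be read against the shares by level given earlier.

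Psmd5, an assembly chaperone of the proteasome's regulatory particle, fell from 228, 300.2 and 210 CPM in WT to 1.74, 2.70 and 5.61 CPM in DKO, with Sting KO at 217, 129 and 67.7 CPM (log2 fold change -6.23 ± 0.66, adjusted p = 0.0085, edgeR). It was the only one of the 47 listed proteasome genes tested that edgeR called, where DESeq2 called 3 lower and 4 higher. In 20 DKO was above WT in every library and in 6 below, against 10.8% and 14.1% of all genes, with a median of 0.69. The count above is to be read against the shares by level given earlier. Psmb3, a core subunit, was at 142, 247 and 153 CPM in WT and 567, 632 and 501 CPM in DKO (log2 difference 1.6, adjusted p = 0.085). Psmd8 lay the other way at 155, 412 and 221 CPM and 55.3, 37.8 and 76.1 CPM (-2.27, adjusted p = 0.13). Adrm1, a ubiquitin receptor of the proteasome that the list does not hold, Ube2d3, a ubiquitin-conjugating enzyme, and Anapc5, of the anaphase-promoting complex, were called lower, Adrm1 from 172, 230 and 167 CPM to 12.6, 17.7 and 19.6 CPM, Ube2d3 from 675, 694 and 740 CPM to 124, 186 and 113 CPM and Anapc5 from 370, 595 and 454 CPM to 65.2, 82.9 and 122 CPM.

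Among the genes that edgeR called, the strongest falls belonged to those that DKO libraries had almost lost. Gimap1, a GTPase of immune associated proteins needed by lymphocytes, was at 151, 108 and 180 CPM in WT, 27.1, 28.1 and 9.03 CPM in Sting KO and 0.0623, 1.06 and 0.536 CPM in DKO (log2 fold change -7.98 ± 1.21, adjusted p = 0.033, edgeR). Ypel3, a p53-responsive growth suppressor, was at 186, 174 and 225 CPM in WT, 53.9, 13.6 and 3.96 CPM in Sting KO and 0.311, 2.19 and 0.233 CPM in DKO (-7.71 ± 1.13, adjusted p = 0.028, edgeR). Apoe, a lipid carrier that limits stem cell proliferation, was at 679, 519 and 550 CPM in WT, 129, 88.4 and 60.6 CPM in Sting KO and 7.44, 2.09 and 3.24 CPM in DKO (-7.13 ± 0.62, adjusted p = 0.0085, edgeR). For these 3 genes the Sting KO libraries lay between the other genotypes without overlap. Rab4a, a GTPase of endosomal recycling, was at 149, 27.9 and 152 CPM in WT and 0.529, 1.09 and 0.606 CPM in DKO, but its Sting KO libraries spread from 14.6 to 302 CPM. Camk1, a calmodulin-dependent kinase, fell from 198, 194 and 223 CPM to 3.46, 2.75 and 1.58 CPM, and Emc10, of the membrane insertion complex, from 307, 140 and 192 CPM to 3.67, 3.51 and 3.38 CPM. Lsm4, of the ring that binds U6 RNA and decaying mRNA, fell from 204, 310 and 191 CPM to 1.49, 6.31 and 4.54 CPM, and Nrgn, a calmodulin-binding protein also found in platelets, from 185, 336 and 214 CPM to 10.9, 2.30 and 4.57 CPM.

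Several genes that still had counts in DKO fell as clearly. Fth1, which stores iron as the heavy chain of ferritin, was at 2735, 4119 and 3406 CPM in WT, 4621, 2625 and 2090 CPM in Sting KO and 53.7, 200.3 and 128 CPM in DKO (log2 fold change -4.80 ± 0.51, adjusted p = 0.0085, edgeR). It too has many processed copies. Pfn1, the actin monomer-binding profilin that stem cells need for retention in the marrow, was at 1351, 1738 and 1044 CPM in WT, 1032, 501 and 470 CPM in Sting KO and 27.3, 83.9 and 42.8 CPM in DKO (-4.80 ± 0.49, adjusted p = 0.0085, edgeR). Arpc2, of the actin-nucleating ARP2/3 complex, fell from 937, 1085 and 759 CPM to 156, 140 and 201 CPM, with Sting KO level with WT at 942, 764 and 891 CPM. Itm2b, a transmembrane protein that binds amyloid precursor, fell from 1612, 1782 and 1697 CPM to 96.9, 20.7 and 16.8 CPM. Nfkbia encodes the IκBα inhibitor, itself a target of NF-κB. It was at 731, 725 and 603 CPM in WT, 1706, 1068 and 1159 CPM in Sting KO and 71.9, 96.9 and 38.2 CPM in DKO (-3.37 ± 0.40, adjusted p = 0.013, edgeR), and its Sting KO libraries were all above WT.

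On the higher side, Nupr1, a stress-inducible chromatin protein, was at 43.0, 75.9 and 74.1 CPM in WT, 120, 156 and 317 CPM in Sting KO and 506, 559 and 297 CPM in DKO (log2 fold change 2.77 ± 0.40, adjusted p = 0.028, edgeR). Ice2, a subunit of the little elongation complex that transcribes small nuclear RNAs, was at 0.0522, 0 and 0.0709 CPM in WT and 51.0, 121 and 86.1 CPM in DKO (adjusted p = 0.043, edgeR). WT held 4 counts of it in all, so the ratio of 2395 has a counting interval from 935 to 8793. Ice2 thus entered the test through DKO alone, and nothing more is read from its p. In WT LT-HSCs of the study's first set its mean was 34.1 CPM. In Sting KO it stood at 24.2, 47.0 and 0.0331 CPM, near 0 in 1 of 3 libraries. Phf11b, of an interferon-responsive family with near-identical copies, was at 0 in all WT libraries and at 64.2, 129 and 31.8 CPM in DKO, at least 2886-fold higher on the floor of 3 counts over the group, yet missed the call (adjusted p = 0.064, edgeR), and in Sting KO it was at 51.1, 16 and 0 CPM. It too entered the test through DKO alone, and its mean in first-set WT LT-HSCs was 27.6 CPM.

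The genes with the next lowest p on this side were not called by edgeR. Rfc2, of the clamp loader, was at 260, 345 and 167 CPM in WT and 869, 934 and 754 CPM in DKO (log2 difference 1.68, adjusted p = 0.077). Tipin, of the fork protection complex, was at 68, 132 and 132 CPM in WT and 484, 419 and 353 CPM in DKO (1.88, adjusted p = 0.084). Serpinb1a, a protease inhibitor, was at 81.9, 101 and 79.8 CPM in WT and 315, 295 and 293 CPM in DKO (1.73, adjusted p = 0.081). The coatomer gene Copz1 and the histone chaperone Set completed the genes with the lowest p on that side; for both, as for Rfc2, Tipin and Serpinb1a, all DKO libraries were above all WT libraries and none was called by edgeR.

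Of 41 tested genes of the cell cycle and mitosis none was called by edgeR, while DESeq2 at the same thresholds called 4 higher and 2 lower. At an unadjusted p under 0.05 and 2-fold, 9 were higher and 2 lower, against 3.41% and 7.9% of all genes, and the median log2 difference was 1.24. Stmn1, which destabilizes microtubules, was at 870, 1520 and 1001 CPM in WT and 2472, 3206 and 2872 CPM in DKO, and Pcna, the replication clamp, at 299, 581 and 389 CPM and 994, 1189 and 1050 CPM. Mcm6, a helicase subunit, went the other way at 399, 345 and 299 CPM and 47.1, 63.5 and 139 CPM. Cdc20, the activator of the anaphase-promoting complex and the lowest member, chosen after its values were seen, was at 43.5, 133 and 104 CPM in WT and 0.125, 1.11 and 7.87 CPM in DKO. Among 15 regulators of G1, Cdk6, whose level sets how readily stem cells leave quiescence, was at 47.8, 26.8 and 50.4 CPM in WT, 126, 85.7 and 93.9 CPM in Sting KO and 171, 205 and 199.6 CPM in DKO (log2 difference 2.15, adjusted p = 0.12). Cdkn1c, the p57 inhibitor, had 476 counts over WT and 2 over DKO, a ratio of 349 with a counting interval from 96.0 to 2888, and was not called. Cdkn1a, the p21 inhibitor, was at 661, 841 and 730 CPM in WT and 314, 1114 and 1070 CPM in DKO.

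The genes closest to the deleted pathway gave no call. Of 20 tested cGAS-STING sensing genes none was called by edgeR or DESeq2, and none passed the unadjusted threshold with 2-fold. Samhd1, which degrades dNTPs, was at 186, 199 and 289 CPM in WT and 163, 112 and 91.2 CPM in DKO. The median of the list was -0.47, or 0.39 with the GC trend taken off, where the median of all genes was 0.42. Irf3, the transcription factor downstream of STING, was at 39.1, 39.9 and 53.9 CPM in WT and 20.7, 64.3 and 48.8 CPM in DKO, and its kinase Tbk1 at 99.0, 158 and 23.1 CPM and 12.3, 81.5 and 74.8 CPM. Ifnb1 and Il6 had 0 counts in all 6 libraries. None of the 8 TET and DNMT genes tested was called by edgeR or DESeq2 or passed the unadjusted threshold with 2-fold, and the one with the highest mean CPM, Tet1, was at 53.7, 27.2 and 118 CPM in WT and 56.9, 0.223 and 44.3 CPM in DKO.

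Of 68 tested interferon-stimulated genes edgeR called none, and DESeq2 called 5 higher and 2 lower. At an unadjusted p under 0.05 and 2-fold, 7 were higher and 3 lower, against 3.41% and 7.9% of all genes. In 15 DKO was above WT in every library and in 4 below, against 10.8% and 14.1%. The median log2 difference was 0.23, against -0.09 over all genes, and 39 of the 68 lay above 0, against 4492 of 9416 genes. The summed level of the list was 11920 to 14640 CPM in WT, 16740 to 18830 CPM in Sting KO and 20030 to 23120 CPM in DKO. A large part of the sum came from few genes: the means of Ifitm1 and Ly6e were 2292 and 1478 CPM in WT and 5148 and 3142 CPM in DKO. Ifitm1, a membrane restriction factor that is also high in stem cells, was at 2088, 2803 and 1987 CPM in WT, 4452, 4853 and 6165 CPM in Sting KO and 4752, 6454 and 4237 CPM in DKO (log2 difference 1.11, adjusted p = 0.13). Ly6e was at 1200, 1702 and 1531 CPM in WT and 3354, 2910 and 3163 CPM in DKO, and Igtp, an interferon-inducible GTPase, at 67.0, 69.2 and 50.2 CPM and 291, 172 and 316 CPM. The fitted log2 differences ran from -9.61 for Gbp9 to 9.68 for Irgm2. Of the 68 genes, 2 had 3 counts or fewer in one of the groups, so that they entered the test through the other group alone. Fitted values against a group near 0 depend on the prior count and are not exact. The Y-linked gene Eif2s3y was at 157 to 215 CPM in Sting KO and near 0 in WT, so the libraries labelled Sting KO and DKO share both the Sting-/- label and this difference from WT.

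Among inflammatory cytokines, receptors and their regulators, 1 was called by edgeR. Of 33 tested, Nfkbia was called lower and none higher, where DESeq2 called 5 lower and none higher. In all, 10 had DKO below WT in every library against 14.1% of all genes and none above. The median was -1.38, or 0.17 with the GC trend taken off, where the median of all genes was 0.42. Tnfrsf1a, the first TNF receptor, was at 101, 65.7 and 110 CPM in WT and 4.73, 7.25 and 6.52 CPM in DKO (log2 difference -3.95, adjusted p = 0.13). Ccl3, a chemokine, had 2296 counts over WT and 7 over DKO without a call. Ifngr1, a chain of the interferon gamma receptor and the member with the highest mean CPM, was at 694, 728 and 615 CPM in WT and 959, 905 and 549 CPM in DKO.

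No gene of stem cell identity was called by edgeR among 41 tested, where 2 were higher and 3 lower at the unadjusted p with 2-fold, against 3.41% and 7.9% of all genes, and DESeq2 called 1 higher and 2 lower. In this list 7 had DKO below WT in every library and 2 above, against 14.1% and 10.8% of all genes. Of the 41, 1 had 3 counts or fewer in 1 of the groups, so that it entered the test through the other group alone. Among the 39 with a mean of at least 10 CPM, 6 were below in every library and 2 above, against 1069 and 930 of all 7574 such genes. Gata2, a factor required for stem cell maintenance, was at 208, 95.0 and 172 CPM in WT, 109, 44.7 and 50.8 CPM in Sting KO and 20.6, 16.7 and 52.7 CPM in DKO (log2 difference -2.46, adjusted p = 0.18). Lmo2, its partner in transcription complexes, was at 751, 360.0 and 613 CPM in WT and 211, 94.5 and 163 CPM in DKO (-1.93, adjusted p = 0.12). Meis1, a HOX cofactor, was at 326, 322 and 612 CPM in WT and 729, 716 and 503 CPM in DKO, and Mecom at 118, 100.2 and 43.2 CPM and 76.4, 88.2 and 28.6 CPM, both with overlapping groups. Meis1 and Mecom, like Kit, Procr, Cd48, Fos, Irf3 and Tbk1 above, were named for their known role and not by the rule for named genes. Among 71 genes of DNA damage and repair, edgeR called only Ube2d3, and DESeq2 called 4 lower and 1 higher, against 6.48% and 2.12% of all genes. Among the 71 listed small GTPases and regulators tested, which do not include Rab4a, edgeR called only Arf4, an organizer of vesicle traffic, from 808, 952 and 698 CPM to 281, 202 and 278 CPM, and DESeq2 called 6 lower and 1 higher. Arf4 was not called in any fit with 1 library left out. With the GC trend taken off, its log2 difference turned to 0.055, where the median of all genes was 0.42. In 17 of these GTPases and regulators DKO was below WT in every library and in 5 above, against 14.1% and 10.8% of all genes. Of the 71, 2 had 3 counts or fewer in 1 of the groups and entered the test through the other group alone. Among the 63 with a mean of at least 10 CPM, 15 were below in every library and 4 above, against 1069 and 930 of all 7574 such genes. In the splicing list, Rbm39, an RNA-binding splicing factor, was the only one of 78 that edgeR called, at 689, 1191 and 1180 CPM in WT and 286, 264 and 154 CPM in DKO (log2 fold change -2.17 ± 0.36, adjusted p = 0.044), where DESeq2 called 4 lower and 3 higher. Snrnp40 of the U5 particle, which the list does not hold, was called too, at 204, 217 and 144 CPM in WT and 4.98, 14.9 and 16 CPM in DKO. In 18 members of the list DKO was above WT in every library and in 11 below, against 10.8% and 14.1%. Here too the count above is to be read against the shares by level given earlier.

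**Figure D3:**
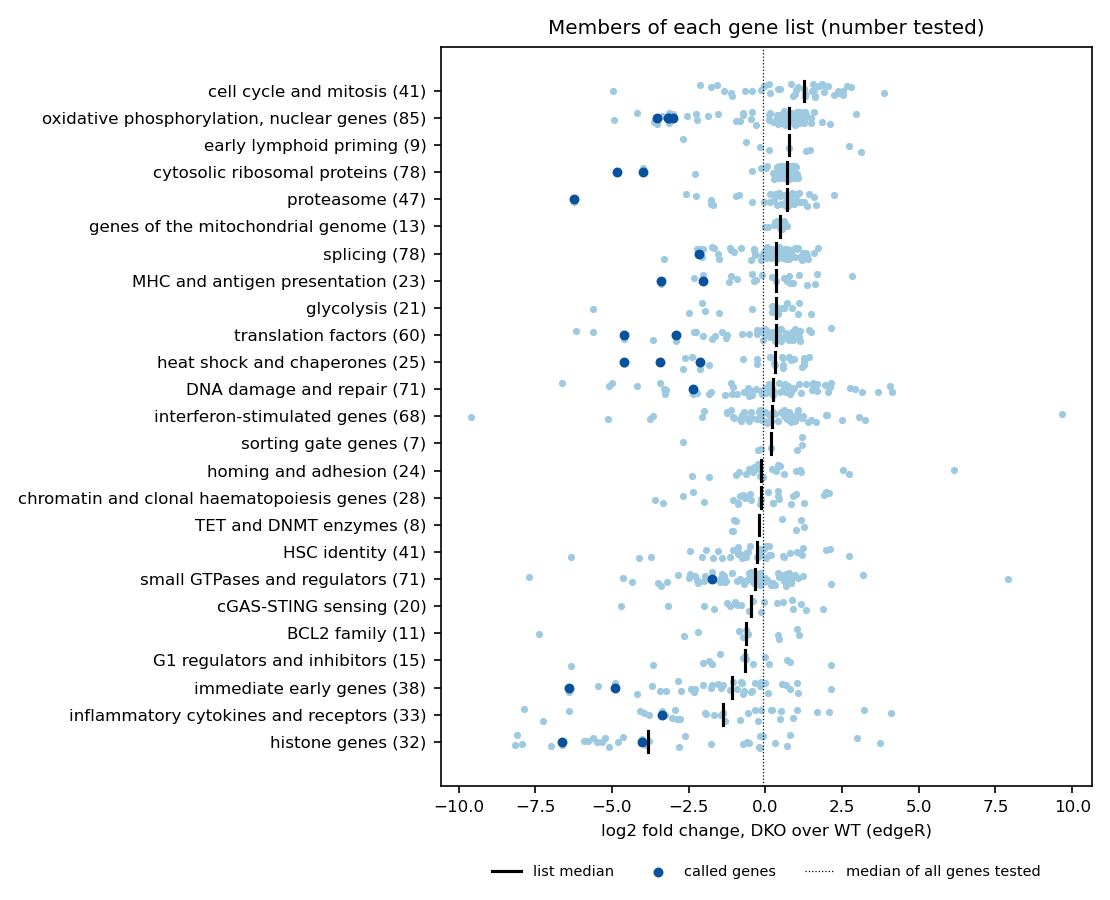
Log2 fold change of DKO against WT for the tested members of the gene lists; each dot is a gene, called genes are marked and bars give the median of the list. Histone genes have a median of -3.84 and genes of the cell cycle and mitosis one of 1.24, against -0.09 over all genes tested.

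Summed levels of marker lists for other cells were similar or moved with few genes. The neutrophil and GMP list (20 genes, 8 at 0 in all 6 libraries) summed to 115 to 425 CPM in WT and 116 to 1042 CPM in DKO, mostly from Prtn3, which was at 75.6, 632 and 345 CPM in DKO. Monocyte and macrophage markers summed to 704 to 1165 CPM in WT and 1012 to 1459 CPM in DKO, mostly from Lyz2. Of the 7 tested, 2 had DKO below WT in every library and none above, against 14.1% and 10.8% of all genes. Irf8 was at 72.0, 10.7 and 92.9 CPM in WT and 0, 0.251 and 0 CPM in DKO, and DESeq2 called it lower. Klf4 was at 10.7, 53.4 and 38.1 CPM in WT and 8.75, 2.19 and 0.0466 CPM in DKO. Neither was called by edgeR. B cell markers summed to 663 to 1129 CPM in WT and 1648 to 2797 CPM in DKO, nearly all from Cd74, with 10 of the 18 markers in the table at 0. Mast cell and basophil markers summed to 1907 to 3180 CPM in WT and 3502 to 4216 CPM in DKO, nearly all from Srgn. Megakaryocyte and platelet markers summed to 1438 to 2145 CPM in WT and 1266 to 1413 CPM in DKO, with Nrgn as the only call by edgeR. Erythroid markers summed to 2604 to 4568 and 3379 to 3753 CPM, T and NK cell markers to 141 to 277 and 133 to 268 CPM, and endothelial and stromal markers to 104 to 191 and 70.3 to 122 CPM. Early lymphoid genes such as Cd27, at 277, 133 and 231 CPM in WT and 396, 353 and 387 CPM in DKO, gave no call with edgeR or DESeq2, and 1 of the 9 tested was higher at the unadjusted p with 2-fold, against 3.41% of all genes. What share these cells had in the differences was not tested.

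In all 58 genes that fell, every Sting KO library was above every DKO library, and in 18 of them every Sting KO library was also below every WT library. The 58 were chosen by their high WT and low DKO values, so the place of Sting KO between them is a description from which nothing is read. Sting KO against WT had a median log2 difference of -0.51 over the 58, from -3.02 to 0.94, and it used the same WT libraries. Over 9635 genes tested, edgeR called none in Sting KO against WT, and 113 were higher and 222 lower at the unadjusted p with 2-fold. WT and Sting KO are each set against the same DKO libraries, so these comparisons share samples too. In DKO against Sting KO, 14 of 9123 genes were called lower (0.153%) and 0 higher (0.0%) by edgeR, where 480 were lower and 167 higher at the unadjusted p with 2-fold and DESeq2 called 475 and 147. The 14 were Rpl13, Junb, H2-D1, Fth1, Dnajb1, Dnajb9, Atp5b, Eif1, Arpc2, Nfkbia, Ptprcap, Adrm1, Chchd2 and Gltscr2. No gene was called lower in this comparison when any 1 of its 6 libraries was left out. For Uqcrfs1, by contrast, Sting KO was at 52.4, 34.3 and 22.8 CPM, next to 19.9, 19.8 and 11.3 CPM in DKO, and for H1f0 at 98.5, 56.3 and 63.1 CPM.

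None of the 58 genes was called in LT-HSCs of Tet2 knockout mice (Tet2 KO; Tet2 f/f, Mx1-Cre, without the Sting deletion) sequenced in the study's first set, with 4 Tet2 KO and 3 WT libraries. Of the 57 tested there, the median log2 difference was -0.43, from -1.42 to 0.66, with 45 below 0. Over all 12332 genes tested there, edgeR called none, and 241 were higher and 160 lower at the unadjusted p with 2-fold. The DKO effect minus the Tet2 KO effect, fitted as an interaction over both sets, was called lower in 180 of 12599 genes (1.43%) and higher in 72 (0.571%). The DKO and WT libraries that chose the named genes are also a term of this difference, so its values are given for them as a description. They were -5.04 for Ier2, -6.12 for Junb, -4.0 for Rpl13, -4.10 for Rps2 and -5.90 for Apoe, and 2.74 for Nupr1, 9.90 for Ice2, 2.89 for Cdk6, 2.12 for Rfc2 and 2.32 for Tipin. The value for Ice2, with 4 counts over the second-set WT libraries, depends on the prior count and is not exact. The sets come as separate count tables, each with its own WT, and the count of genes lower ran from 24 without WT 3 of the first set to 495 without DKO 3, so the set and the genotype cannot be told apart.

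**Figure D4:**
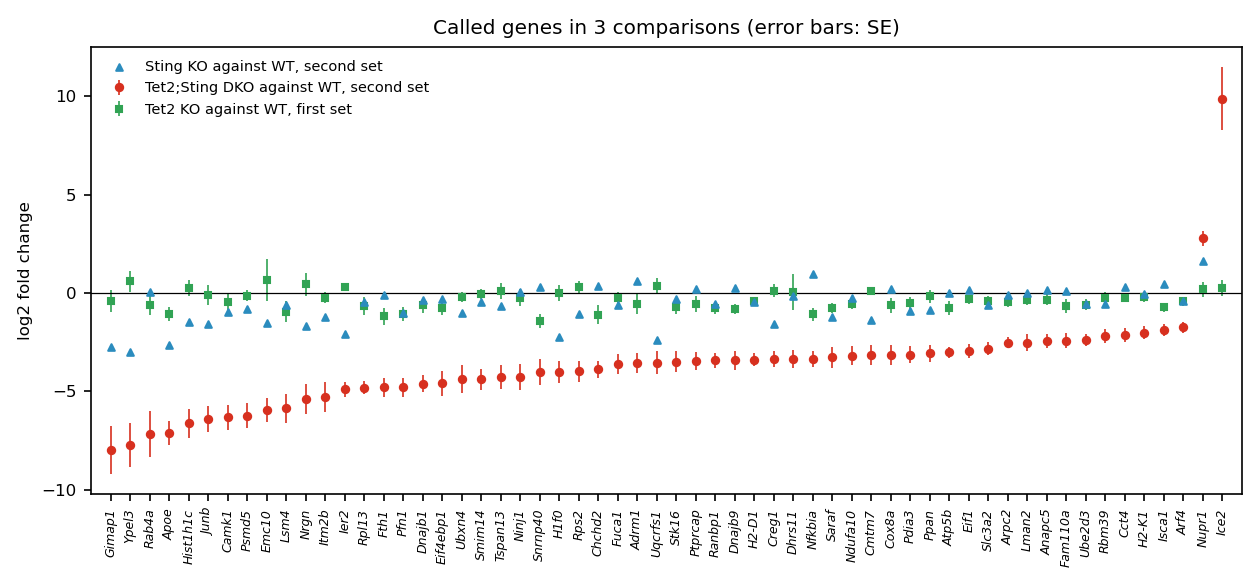
Log2 fold change (y axis) of 58 of the 60 called genes (x axis) in DKO against WT and in Tet2 KO against WT of the first set, both with SE, and in Sting KO against WT. The 56 genes called lower that are drawn lie between -7.98 and -1.74 in DKO, between -1.42 and 0.66 in Tet2 KO and between -3.02 and 0.94 in Sting KO.

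The 58 genes called lower had GC-rich stretches in common. For each gene the densest 200-base window of its longest coding transcript was taken, and its GC content was known for 9179 of the genes tested (all 60 called genes included). The median window held 67.0% GC over all genes, 71.5% over the 58 called lower and 62.0% over the genes with every DKO library above every WT library. All 58 lay between 66.5% and 80.5%, and 53.6% of all genes had a window of at least 66.5%. The windows of Nupr1 and Ice2, called higher, held 59.5% and 61.5%. The log2 difference moved with the window and then turned back: over 10 bins of the genes from low to high GC its median was 0.53, 0.57, 0.47, 0.18, -0.05, -0.56, -1.26, -1.36, -0.71 and -0.29. In the eighth bin, from 72.5% to 75% GC, 32.6% of genes had DKO below WT in every library, against 4.25% in the first bin. Sting KO against WT went the same way with a smaller range, from 0.29 in the first bin to -0.62 in the ninth, whereas Tet2 KO against WT of the first set stayed between -0.05 and 0.13. Across 7497 genes, which are not independent replicates, Spearman's correlation of level with the window was -0.04, -0.14 and -0.12 in WT, -0.14, -0.22 and -0.19 in Sting KO and -0.30, -0.30 and -0.32 in DKO. All 3 DKO libraries thus stood apart from the 3 WT libraries in this measure.

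**Figure D5:**
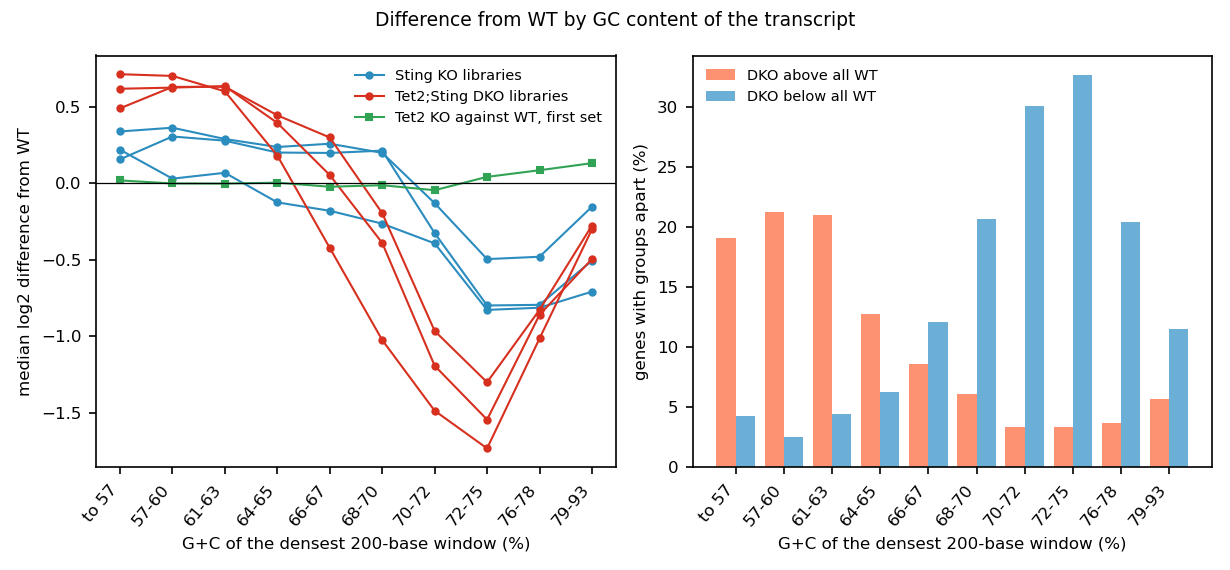
Left, median log2 difference from the WT mean in each DKO and Sting KO library, and in the first-set Tet2 KO group, over 10 bins of genes by the GC content of their densest 200-base window; right, percent of genes with every DKO library above or below every WT library. The DKO lines lie between -1.73 and -0.96 in the seventh and eighth bins, and the share of genes with DKO below WT reaches 32.6% in the eighth.

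Within several gene lists the values differed along this axis. Among genes of oxidative phosphorylation, the 24 with a window of at least 67.5% GC had a median log2 difference of -0.89, and the 61 below it one of 0.99. In the proteasome the values were -1.09 for 8 genes and 0.84 for 39, in the chaperones -0.71 for 15 and 0.66 for 10, in antigen presentation -1.02 for 10 and 0.86 for 13. In antigen presentation the 6 genes with every DKO library above WT had windows of 56% to 67%, and the 4 with every DKO library below had 70% to 72.5%. The ribosomal proteins did not part at this point, at 0.72 for 15 genes and 0.69 for 63. Inflammatory cytokines and receptors were low on both sides of it, at -1.38 for 23 genes and -1.13 for 10. Mcl1 (82.5%), Set (82%) and Cdk6 (74.5%) had rich windows and higher levels in DKO.

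With the trend over GC taken off each gene, an alternative added after the data were seen, the median over all genes moved from -0.09 to 0.42, and edgeR called 8 genes lower and 8 higher. The correction overshot: Spearman's correlation of the log2 difference with the window went from -0.32 to 0.15. The corrected median was 0.15 in the first bin, 1.04 in the ninth and 0.82 in the tenth. Higher calls and turned signs under this setting carry that shift. The 8 lower, Rpl13, Ier2, Junb, Apoe, Dnajb1, Emc10 and Psmd5 among them, all belong to the 58, while Cdk6 and Hspa8, a constitutive HSP70, were among the 8 called higher. Of the 58, 57 stayed negative and 52 kept at least a 2-fold difference, with a median of -2.04. Whether GC content, library preparation, sex or genotype sets these values was not tested.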

How the data were processed

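RNA from sorted LT-HSCs was sequenced. The authors deposited raw, whole-number counts per gene, which were not normalized. They trimmed reads with Trim Galore and mapped them with Hisat2 to mm10; the versions in the submitters' processing notes differ from those in the methods and are not given here, and the counting program is not given in the sources used here. Without molecular identifiers, reads are not independent molecules, and intervals and floors cover counting error only. Of the table of the second set, 3 broken lines were left out, and 27 symbols that a spreadsheet had turned into dates were restored.

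The 6 libraries went into a quasi-likelihood F-test of edgeR (4.0.16, under R 4.3.3) after filterByExpr and TMM scaling. A call needed an adjusted p (Benjamini-Hochberg, all genes tested) of 0.05 or less and a 2-fold change, and log2 values carry a prior count of 2. Genes of chromosomes X and Y entered the fit but were not counted. DESeq2 1.42.0, other scalings and filters, all 9 libraries in one fit, a replicate block and each library left out were the alternatives. The first set was joined by symbol (26736 genes). Scripts were tested on simulated counts. Figures were drawn with matplotlib.

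Genes were named by rule: Tet2 and Tmem173, the called genes, the 12 genes per direction with the lowest p among those with at least 10 CPM, 2-fold and groups that do not overlap, and in each list up to 3 members of lowest p and the member of highest mean CPM. A few genes that the rule named are not reported here. The members and lists were chosen with earlier results of these data known. Depth per library was 26776103 to 78681188 counts.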

Additional observations from a re-analysis of the deposited data

Results flagged for a closer look

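The following results stood out because the difference between DKO and WT was itself different from that between Tet2 KO and WT LT-HSCs of the first set, by the interaction term of an edgeR fit. Over 12599 genes, 180 were called lower and 72 higher. Values are the DKO effect minus the Tet2 KO effect on the log2 scale. The genes named were chosen on the DKO and WT libraries that are also a term of this difference, so their values are a description. The sets come as separate count tables, each with its own WT libraries, so the set and the genotype cannot be told apart.

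Among genes that fell in DKO, the difference was -8.13 for Ypel3, -7.40 for Gimap1, -6.70 for Hist1h1c, -6.39 for Rab4a, -6.12 for Junb, -5.95 for Psmd5, -5.90 for Apoe, -5.70 for Nrgn, -5.69 for Camk1 and -5.04 for Ier2. It was -4.77 for Lsm4, -4.10 for Rps2, -4.0 for Rpl13, -3.84 for H1f0, -3.82 for Dnajb1, -3.73 for Uqcrfs1, -3.71 for Eif4ebp1, -3.56 for Pfn1 and -3.46 for Fth1. It was -2.79 for H2-D1, -2.45 each for Ndufa10, Eif1 and Dnajb9, -2.09 for Atp5b, -1.72 for Cct4 and -1.63 for H2-K1. Of genes that were not called in DKO against WT, the value was -8.76 for Ccl3, -4.12 for Tnfrsf1a and -3.07 for Jun. Ccl3 had 7 counts over the DKO libraries, so its fitted value depends on the prior count and is not exact.

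Upward, Ice2 differed by 9.90 and Nupr1 by 2.74. Of genes not called in DKO against WT, the value was 2.89 for Cdk6, 2.32 for Tipin, 2.12 for Rfc2, 2.05 for Snrpd1, 2.02 for Set, 1.94 for Copz1, 1.91 for Psmb3, 1.80 for Pcna, 1.76 for Ndufa9, 1.56 for Hsp90aa1 and 1.53 for Hspa8. The fitted value for Phf11b, also not called, was 10.54. Over the second-set WT libraries Phf11b had 0 counts and Ice2 had 4. Their fitted values therefore depend on the prior count and are not exact differences.

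The counts depended on single libraries of both sets. Genes lower numbered 33, 24 and 25 without its WT 2, WT 3 and WT 5, and 61, 68, 109 and 73 without its Tet2 KO 2, 3, 4 and 5. They numbered 349 without WT 2 of the second set and 406, 355 and 495 without DKO 1, 2 and 3. Genes higher numbered 11, 9 and 8 without WT 2, WT 3 and WT 5 of the first set, 19, 21 and 23 without its Tet2 KO 2, 3 and 5, 122 and 163 without WT 1 and WT 2 of the second set and 168 without DKO 3.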

How the results depend on the processing

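All 60 called genes kept their direction under every setting except the GC correction, under which Arf4 turned to a log2 difference of 0.055. That correction overshot and left a median of 0.42 over all genes. The count of genes lower in DKO than in WT was 610 with DESeq2, 106 with all 9 libraries in one fit and 8 with the GC trend taken off, and 2 to 36 with 1 library left out. The count of genes higher was 200, 21 and 8 in the same fits, 13 without a filter on low counts and 0 to 1 with 1 library left out. At the unadjusted p, taking off the GC trend gave 655 higher and 398 lower, and leaving out 1 library gave 327 to 503 higher and 576 to 894 lower. Groups that do not overlap numbered 1339 to 1618 higher and 1715 to 2128 lower with 1 library left out, where fewer libraries are to be kept apart. For DKO against Sting KO, genes higher numbered 147 with DESeq2, 4 without a filter and 4 with all 9 libraries in one fit; genes lower numbered 475, 41 and 76, and 27 with a mean of at least 10 CPM, 0 with the GC trend taken off and 0 with any library left out. For the DKO effect minus the Tet2 KO effect, genes higher numbered 677 with DESeq2, 47 without a filter and 8 to 168 with 1 library left out, and genes lower 1420 with DESeq2, 57 with the GC trend taken off and 24 to 495 with 1 library left out. The cause of these shifts was not tested. RLE scaling and leaving chromosomes X and Y out of the fit moved no count of DKO against WT by over 1.5 times. The medians of 24 of 34 lists moved by more than the SD of their leave-one-out values when the GC trend was taken off, and none did under DESeq2 or RLE scaling.

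Same-numbered DKO and WT libraries did not deviate together (correlations -0.0107, 0.0187 and -0.00406). This cannot decide whether the numbers pair the libraries, since it would miss a shared origin that is small beside the spread of single libraries. With the replicate block, 25 genes were lower and 0 higher than in WT, and 0 were lower than in Sting KO. With 3 libraries a group, small differences and genes under a few CPM could not be resolved.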
